A study of Caenorhabditis elegans with 2 samples.

Results

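Homeobox genes encode transcription factors that bind DNA through a homeodomain, and the set described here held 92 of the 19973 nuclear protein-coding genes of Caenorhabditis elegans. Members were the genes whose symbol is ceh- followed by a number, plus 29 homeobox genes with other names, such as lin-39, unc-86 and lim-6. Sites of RCOR-1, a worm protein of the CoREST corepressor family, had been mapped by ChIP-seq in whole young adults of strain RW12222 at 65 hours. The animals were synchronised as L1 larvae starved after bleaching. They carry a CRISPR insertion, st12222[rcor-1::TY1::EGFP::3xFLAG], so the tagged protein is made from the rcor-1 locus itself. Chromatin was sheared by sonication and precipitated with an antibody against GFP. There was 1 group of 2 biological replicates, so there is no comparison between conditions. No input or untagged library was analysed here, and the number of reads per library was not given, so depth is unknown. Whole animals were used, so a site used in a few neurons and a weak site used in many cells cannot be told apart.

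Homeodomain proteins set body position and cell identity, and in C. elegans combinations of them mark almost every neuron class. Hox genes pattern the main body axis. LIM, POU, paired-like, sine oculis-type, NK-type and CUT genes act largely in neurons, pharynx, muscle and epidermis. CoREST proteins join histone deacetylases to the LSD1-type demethylase, and the complex is known in mammals for holding neuronal genes silent in other cells. That knowledge is background and was not tested here.

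At 5' ends, 1 homeobox gene was a peak in the conservative list made between both replicates, the CUT gene ceh-38. A second, the Dlx gene ceh-43, was a peak in the other thresholded list of the series alone. That list was also made from both replicates. Inside gene bodies, the Rx gene ceh-8 held a peak in each of the 4 thresholded lists and the CUT gene ceh-21 held one in the other list alone. Farther upstream, ceh-39 and lim-6 each had a conservative peak. The same ceh-21 region also counts as upstream of ceh-41 in the other list. The remaining members had no peak at a 5' end, inside or up to 3000 bp upstream in these lists, and their candidate regions at 5' ends ran up to percentile 91.9 where there was one. A candidate region is any region of the ranked list, and a peak is one that passed the irreproducible discovery rate (IDR) threshold of 0.01. Regions counted as at a 5' end had a summit no more than 500 bp from any annotated start of the gene's transcripts, and those counted as inside had a summit in the gene body farther than that from each of its starts.

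Of the 6 separate regions with a peak, 5 are shown, so that the letters and annotated genes under them can be read beside the values. The region in ceh-8 is neither shown nor searched for words. Each sequence is written 5' to 3' on the plus strand of ce11 from the RefSeq genome. For ceh-38 the bases of chrII:6951410-6951525 are given, the part of the region upstream of the annotated 5' UTR, with no letters in capitals. For ceh-43 (chrIII:4450251-4450530) and ceh-39 (chrX:1858686-1858965) the capitals mark an annotated tRNA gene. For ceh-21 (chrX:1850573-1850852) they mark TTAGGC, the unit of the C. elegans telomere repeat, at scattered places. For lim-6 (chrX:1070632-1070911) they mark matches, read on the minus strand, to the words GCNNAGTGG and GTTCNANTC, loose forms of the A and B boxes of tRNA promoters.
ceh-38: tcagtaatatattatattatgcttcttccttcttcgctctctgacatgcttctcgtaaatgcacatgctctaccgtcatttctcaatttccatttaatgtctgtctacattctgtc
ceh-43: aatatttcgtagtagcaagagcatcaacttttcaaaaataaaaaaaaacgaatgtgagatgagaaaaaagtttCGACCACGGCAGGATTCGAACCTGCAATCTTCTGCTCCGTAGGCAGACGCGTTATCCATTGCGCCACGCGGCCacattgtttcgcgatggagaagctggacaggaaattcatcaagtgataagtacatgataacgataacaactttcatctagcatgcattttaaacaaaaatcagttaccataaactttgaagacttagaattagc
ceh-21: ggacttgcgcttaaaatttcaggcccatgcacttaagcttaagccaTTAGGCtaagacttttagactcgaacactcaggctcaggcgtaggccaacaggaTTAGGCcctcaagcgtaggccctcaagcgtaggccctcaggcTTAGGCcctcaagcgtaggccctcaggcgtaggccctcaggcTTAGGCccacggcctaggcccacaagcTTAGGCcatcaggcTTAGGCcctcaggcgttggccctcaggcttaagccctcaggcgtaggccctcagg
ceh-39: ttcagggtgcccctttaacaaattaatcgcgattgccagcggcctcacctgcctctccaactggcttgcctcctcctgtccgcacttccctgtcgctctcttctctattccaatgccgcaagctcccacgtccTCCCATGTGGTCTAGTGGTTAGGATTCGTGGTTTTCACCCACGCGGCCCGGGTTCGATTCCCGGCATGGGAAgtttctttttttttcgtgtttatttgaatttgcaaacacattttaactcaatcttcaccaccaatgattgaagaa
lim-6: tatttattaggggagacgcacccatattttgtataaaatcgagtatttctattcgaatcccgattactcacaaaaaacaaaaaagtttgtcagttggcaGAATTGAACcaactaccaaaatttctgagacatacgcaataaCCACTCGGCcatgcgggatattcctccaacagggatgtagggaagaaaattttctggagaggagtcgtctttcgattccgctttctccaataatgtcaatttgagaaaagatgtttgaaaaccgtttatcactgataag

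Of 9 listed words searched on both strands in the full 280 bp regions, TAATTA, the core of many homeodomain sites, was in none of the 5 shown. It was in 10.8% of the 2324 conservative peaks and in 9.76% of candidate regions. GAGAGA, a GA repeat word found in 34.1% of peaks and 19.8% of candidate regions, was also in none of them. The shifted word AGAGAG was not searched. It reads CTCTCT on the other strand, which is in the ceh-38 and ceh-39 letters shown. The POU octamer ATGCAAAT (1.68% of peaks) and the E-box CACGTG (7.14% of peaks) had no match either. Within the 5' UTR of the ceh-38 region, which is not shown, there was 1 match to ATCGAT, the word bound by CUT domains, and 1 to TGACAG, a Meis word. They were in 12.1% and 8.39% of peaks. The ceh-43 region held 1 TGATNNAT, a Hox and Pbx word in 13.4% of peaks, and 1 CAAGTG, an NK2 word in 13.6%. A match is a description of letters only.

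The tRNA promoter word GTTCGANNC was in the ceh-43, ceh-39 and ceh-21 regions, against 12.7% of peaks and 3.38% of candidate regions. It overlaps GTTCNANTC, which was chosen with GCNNAGTGG and TTAGGC after the sequences had been seen. The lim-6 region held both of those loose tRNA words although no tRNA or other non-coding gene is annotated there. Both words together were in 3.31% of peaks, in 0.419% of candidate regions and in 1.09% of the 2020 peaks away from tRNA 5' ends. The ceh-21 region held 6 matches to TTAGGC, no pair of them adjacent, among other repeated letters, with a GC content of 58.9%, above the 53.9% that marks the 95th percentile of peaks. At least 6 matches were found in 3 peaks (0.129%) and in 271 candidate regions (0.601%). Whether reads map uniquely to that region, or to the tRNA genes under the ceh-43 and ceh-39 regions, was not tested.

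ceh-38 encodes a ONECUT factor, one of the CUT proteins that act together across the worm nervous system. Its peak had a signal of 89.3, close to the median of 90.2 for conservative peaks, and stood at percentile 97.3 among all 45081 nuclear regions ranked between replicates. Signal is the authors' own value for a region and has no stated unit, so percentiles within a ranked list are used below. In replicate 1 the region had a signal of 33.5, at percentile 95.2, and an IDR of 0.0116, just outside the threshold. In replicate 2 it was a peak with a signal of 59.1, at percentile 97.2. Both replicates thus placed it among their strongest regions. The summit lay 24 bp downstream of the first of 11 annotated 5' ends, in the 5' UTR. It also lay 250 bp upstream of the 5' end of malt-1, the paracaspase gene transcribed the other way. The peak therefore belongs to a promoter region shared by both genes and cannot be given to ceh-38 alone.

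ceh-43 encodes the worm Dlx factor, which acts in dopaminergic neurons and head epidermis. The region 448 bp upstream of its 5' end had a signal of 56.1 and an IDR of 0.0151 between replicates, so it missed the conservative list. The other list of the series took it with an IDR of 0.00861. It stood at percentile 93.3 in replicate 1 and 85.3 in replicate 2, where the signals were 28.5 and 28.3. Its summit lay 5 bp into a tRNA gene on the minus strand (chrIII:4450324-4450396), which an antisense non-coding RNA gene, C28A5.11, overlaps. A second candidate region 335 bp downstream of the ceh-43 5' end had a signal of 52 (percentile 92.7). It too lay at a tRNA gene, its summit 3 bp before that gene's annotated span, with the non-coding RNA C28A5.12 across it. Both strong regions near ceh-43 thus sat at tRNA genes. Over the whole conservative list, 13.1% of summits lay within 500 bp of a tRNA 5' end, against 1.26% of candidate regions.

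ceh-8 encodes an Rx-type paired-like factor. Its peak at chrI:8245521-8245800 was, with the one upstream of ceh-39, the strongest described here, with a signal of 153 at percentile 99.2 between replicates. Replicate 1 had a signal of 50.3 (percentile 97.9) and replicate 2 a signal of 90.1 (percentile 98.9), and the region was in all 4 thresholded lists. The summit was in the annotated 3' UTR, 5287 bp from the first 5' end of the gene and 1306 bp from the nearest. It lay 39 bp upstream of the 5' end of ZK265.11, a non-coding RNA gene on the same strand, and 698 bp upstream of the collagen gene col-63. The 5' ends of ceh-8 had no candidate region between replicates. Replicate 1 listed one 500 bp downstream of a start (percentile 27.2) and replicate 2 another 5 bp upstream of one (percentile 64.8). The other ranked list of the series also had a region 5 bp upstream of a start, with a signal of 29.6 (percentile 63.7).

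The CUT genes ceh-41, ceh-21 and ceh-39 are neighbours on the X chromosome, all on the minus strand, with the 5' ends of ceh-41 and ceh-39 7497 bp apart. ceh-39 is known as an X signal element, one of the genes whose dose tells the embryo its number of X chromosomes. A peak 2654 bp upstream of ceh-39 had a signal of 153 between replicates (percentile 99.2), 70.6 in replicate 1 (percentile 99) and 81.4 in replicate 2 (percentile 98.6). It was in all 4 lists. Its summit was 7 bp into a tRNA gene on the plus strand (chrX:1858819-1858890), and the nearest protein-coding 5' end was that of T26C11.8, 1896 bp away. Nearer to ceh-39, 205 bp upstream of its 5' end, a candidate region had a signal of 53.9 (percentile 93.2). It was at percentile 83.8 in replicate 1 and 87.4 in replicate 2, and at a −log10 IDR of 1.43, below the 2 that the threshold asks for. A non-coding RNA gene on the plus strand, T26C11.10, lies beside that summit, from -357 to -301 bp relative to the ceh-39 5' end. Another region, in a coding exon of ceh-39, had a signal of 49.3 (percentile 91.7), with percentile 95.1 in replicate 1 and 72.3 in replicate 2.

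In the same cluster, the region in an intron of ceh-21 had a signal of 60.9 (percentile 94.7) and an IDR of 0.0165 between replicates. It passed in the other list with an IDR of 0.00929 and stood at percentile 86.4 in replicate 1 and 92.4 in replicate 2. Its summit lay 2023 bp from the 5' end of ceh-21 and 2038 bp upstream of ceh-41. The 5' end of ceh-21 itself had a region with a signal of 19 between replicates (percentile 26.3), which was at percentile 64.8 in replicate 1 and not listed in replicate 2. That of ceh-41 had none between replicates, and 10.6 (percentile 24.7) in replicate 1. In all, 13 candidate regions lay in the cluster or up to 3000 bp to either side, and 1 of them was a conservative peak.

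lim-6 encodes a LIM homeodomain factor of GABAergic and other neurons. Its upstream peak, with a summit 1680 bp before its first 5' end, had a signal of 82.7 between replicates (percentile 96.9). Replicate 1 listed it as a peak with a signal of 32 (percentile 94.7). In replicate 2 the signal was 46.2 (percentile 95.5) with an IDR of 0.0139, so it missed that list. The summit lay almost midway between lim-6 and the divergent gene mksr-1, a ciliary transition zone gene whose 5' end is 1643 bp away. Within the 500 bp window, at a later 5' end, lim-6 had a region with a signal of 41.1 (percentile 86.1). It was at percentile 83.9 in replicate 2, and no region of replicate 1 overlapped it.

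**Figure D1:**
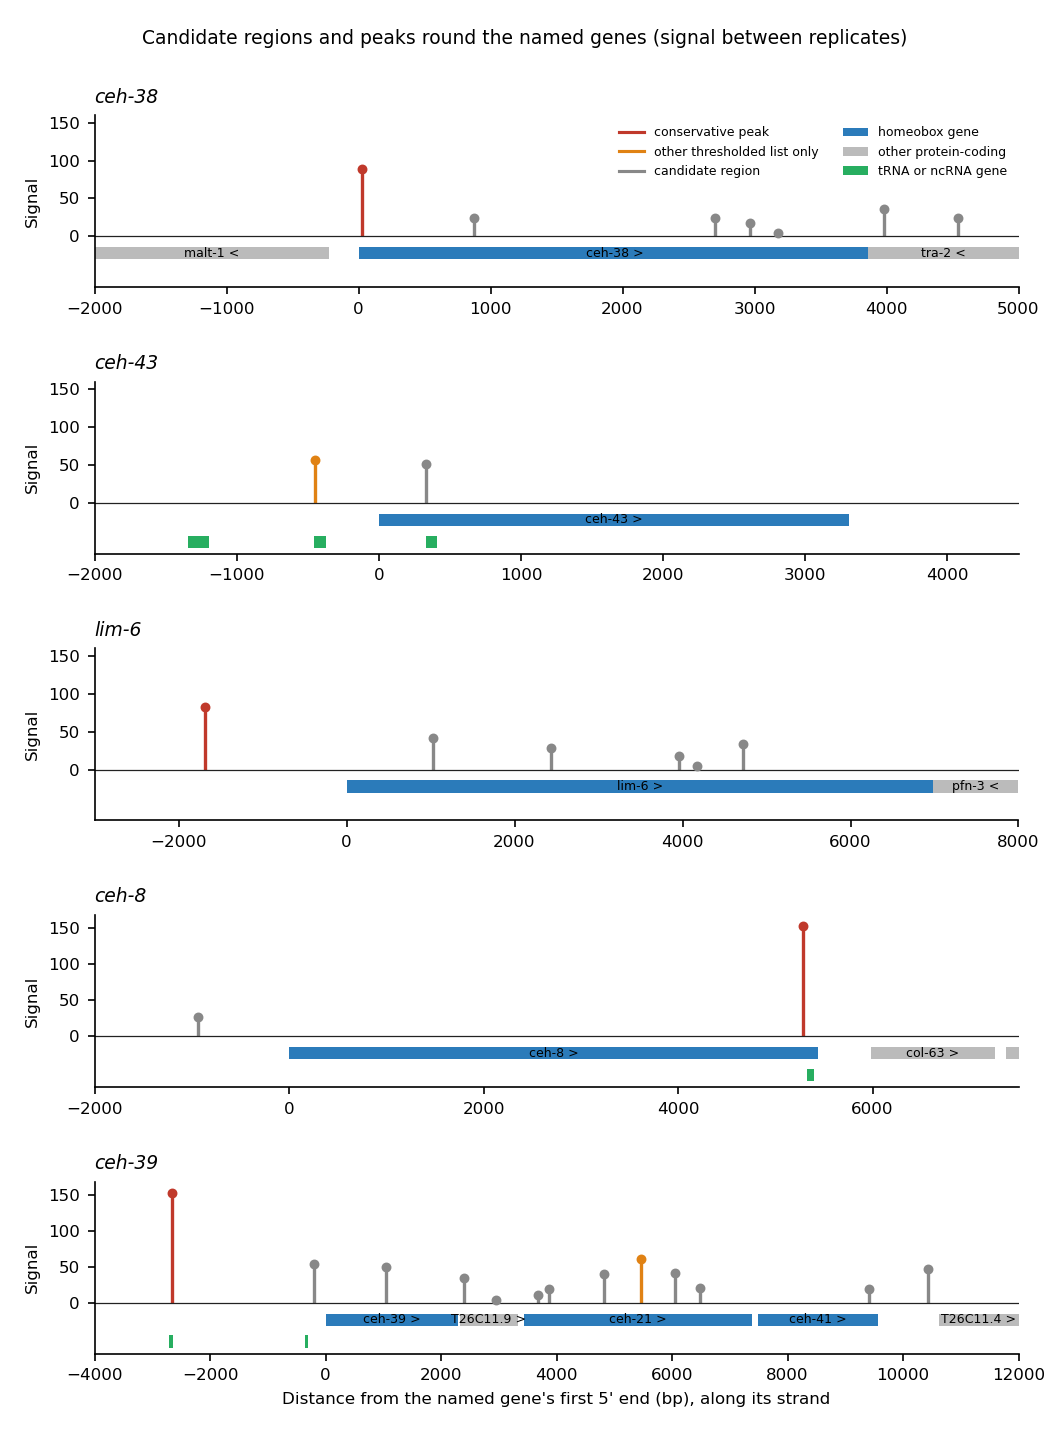
Signal between replicates (vertical axis, the authors' unit) of each candidate region against distance in bp from the first 5' end of the named gene along its strand, with genes as bars below and arrowheads for direction. Red stems are conservative peaks, orange stems are regions in the other thresholded list alone and grey stems are candidate regions. The ceh-38 peak stands at its 5' end, while the peaks with a signal of 153 stand at a tRNA gene upstream of ceh-39 and beside a non-coding RNA gene in ceh-8.

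Counted over the family, the single 5' end peak in the conservative list was 1.09% of the 92 members (95% Wilson interval 0.192% to 5.9%, which covers counting error only). The share over all protein-coding genes was 7.05%. The other list had 2 members (2.17%) against 7.23% of all genes. Replicate 1 had 0 members, where the interval reaches 4.01%, against 5.00% of all genes, and replicate 2 had 1 against 4.73%. Candidate regions at a 5' end were found in 37 members (40.2%, interval 30.8% to 50.4%), against 44.8% of all genes, and the members' share was the lower one in each of the 4 ranked lists. Among genes with such a candidate region, 1 of 37 members (2.7%, interval 0.479% to 13.8%) and 15.7% of all genes had a peak there. No test was made of these differences, because members were chosen with earlier results known and genes that share promoters are not independent.

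Inside gene bodies the conservative peak in ceh-8 was 1 member of 92 against 2.25% of all genes, and the other list had 2 members against 2.31%. Candidate regions inside were found in 42 members (45.7%, interval 35.9% to 55.8%), against 43.5% of all genes. Beyond the 5' window, from 500 to 3000 bp upstream, ceh-39 and lim-6 made 2 members with a conservative peak (2.17%, interval 0.598% to 7.58%), against 7.12% of all genes. By the presence of candidate regions, 25 members had one both at a 5' end and inside, 12 at a 5' end alone, 17 inside alone and 38 neither. This split is not given for all genes, so it cannot be read as particular to the members. Taken singly, 44.8% of all genes had a candidate region at a 5' end and 43.5% had one inside.

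**Figure D2:**
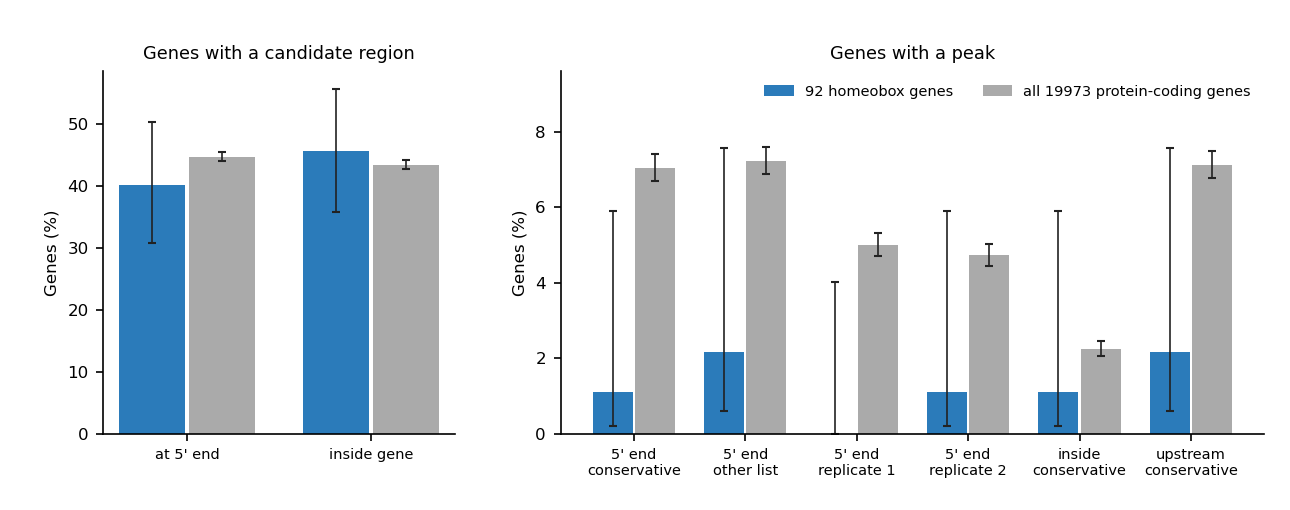
Percent of genes with a candidate region (left) or a peak (right) at a 5' end, inside the gene or 500 to 3000 bp upstream, for the 92 homeobox genes (blue) and all 19973 protein-coding genes (grey), with 95% Wilson intervals as bars. At 5' ends the shares with a candidate region are 40.2% and 44.8%, and the shares with a conservative peak are 1.09% and 7.05%.

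The strongest region at a 5' end had a median percentile of 70.9 over the 37 members (quartiles 51.6 and 84.5, range 14 to 97.3), against 71.7 over 8951 genes (quartiles 46.4 and 90.6). By position, 21 of the 37 summits (56.8%) lay upstream of the start, with a median of -57 bp, and over all genes 58.7% did, with a median of -65 bp. Of the 37 members, 4 (10.8%) stood from the 90th to the 95th percentile, against 10.4% of the 8951 genes. Beyond the 95th there was 1 (2.7%), ceh-38, against 15.7% of genes. Over all genes, 92% of the 1402 whose region was at the 95th percentile or higher had a peak, and 11.4% of the 929 between the 90th and 95th. Below the 80th percentile, where 25 of the 37 members stood, 4 of 5338 genes had one.

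**Figure D3:**
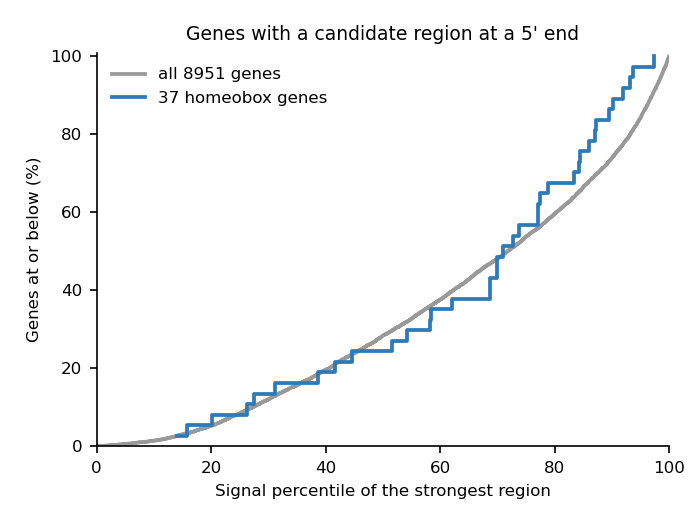
Cumulative percent of genes (vertical axis) against the signal percentile of the strongest candidate region at a 5' end, for 37 homeobox genes (blue) and 8951 protein-coding genes (grey). The medians are 70.9 and 71.7, and the blue curve ends at 97.3 with 1 gene above the 95th percentile.

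The members' values were then followed at the same site in each replicate, taking the replicate's region that overlaps the strongest region between replicates by at least 1 bp. Of the 37 members, 24 had such a region in replicate 1 and 22 in replicate 2, with 14 in both and 5 in neither. Of the 8951 genes, 6221 had one in replicate 1 and 6262 in replicate 2, with 4711 in both and 1179 in neither. Over the 14 members with one in both, Spearman's rho between the replicates' percentiles was 0.08. Over the 4711 genes with an overlapping region in both it was 0.68. This describes 1 pair of libraries and few members. The median percentile was 50.9 over the 24 members with a region in replicate 1, against 75.4 over 6221 genes. It was 77.9 over the 22 members in replicate 2, against 72.6 over 6262 genes. Within each replicate, the members' median was thus below that of all genes in replicate 1 and above it in replicate 2. Only 14 members are in both medians, so these do not compare the same members between replicates. ceh-38, ceh-43 and ceh-39 were above percentile 80 in each replicate. When each replicate's strongest region near any 5' end was taken instead, which for several members is another site, 37 members had one in replicate 1 and 33 in replicate 2, with medians of 49.6 (67.1 over all genes) and 64.8 (66.7). Values given below for a replicate are at the same site unless stated.

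**Figure D4:**
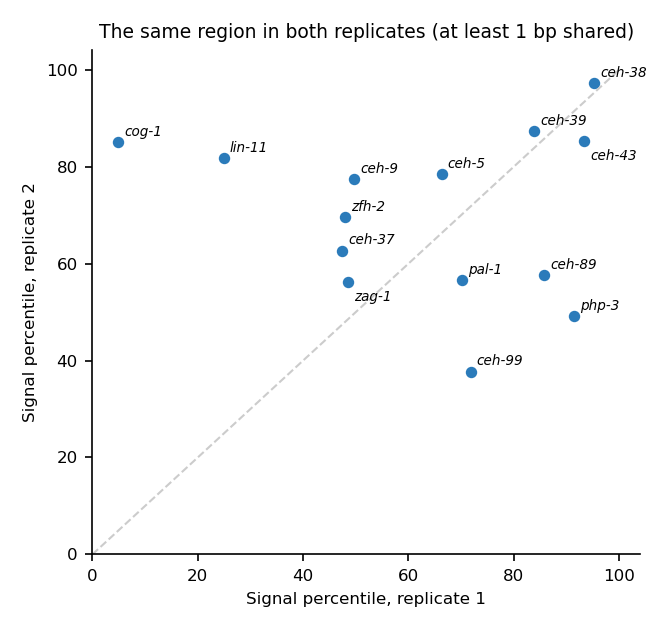
Signal percentile in replicate 1 (horizontal) and replicate 2 (vertical) of the region that overlaps the member's strongest region at a 5' end between replicates, for the 14 homeobox genes with an overlapping region in both, with the line of equality dashed. ceh-38, ceh-39 and ceh-43 stand at the upper right, while cog-1 is at 4.95 in replicate 1 and 85.1 in replicate 2.

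After ceh-39, the uncalled members with the highest percentiles were ceh-89, a gene not placed in a class here, and unc-62, the Meis gene that works with Pbx and Hox proteins. ceh-89 had a signal of 49.9 (percentile 91.9), with percentile 85.8 in replicate 1 and 57.7 in replicate 2. unc-62 had a signal of 46.4 (percentile 90.1) at -446 bp. It was at percentile 93 in replicate 2, and no region of replicate 1 overlapped it. ceh-92, also unclassed, was at percentile 89.4, with percentile 80.5 in replicate 2 and no overlapping region in replicate 1. ceh-5, the worm Vax gene, was at percentile 87.2 with a summit at -39 bp, and at 66.3 and 78.4 in replicates 1 and 2.

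Among NK-type and related genes, 8 of 21 had a candidate region at a 5' end, with a median percentile of 76. cog-1, the Nkx6 gene that separates the left and right ASE taste neurons, was at percentile 84.5 between replicates, 4.95 in replicate 1 and 85.1 in replicate 2. ceh-9 was at 83.3, with 49.6 in replicate 1 and 77.5 in replicate 2. ceh-22, the Nkx2.5-type gene of pharyngeal muscle, was low at 20.1. No candidate region at a 5' end or inside was listed between replicates for 11 of the class, namely ceh-2, ceh-7, ceh-12, ceh-16, ceh-23, ceh-24, ceh-27, ceh-28, ceh-51, mls-2 and tab-1.

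All Hox genes lie on chromosome III, and 2 of the 6 had a candidate region at a 5' end. php-3, a posterior Abdominal-B type gene, had a signal of 42.2 (percentile 87.1) at 172 bp downstream, with 25.5 in replicate 1 (percentile 91.4) and 18.7 in replicate 2 (percentile 49.2). Its neighbour nob-1, with a 5' end 1879 bp away, had a signal of 19.4 (percentile 27.6), with percentile 25.8 in replicate 1 and none in replicate 2. egl-5, the remaining Abdominal-B type gene, had none between replicates. Replicate 2 listed one at its 5' end, with a signal of 19.4 (percentile 53.5), and replicate 1 one inside the gene, with a signal of 13.4 (percentile 47.9). ceh-13 (labial), lin-39, which patterns the vulva, and mab-5, which steers migrating neuroblasts, had no region at a 5' end in any of the ranked lists. They had none inside between replicates or in either replicate. pal-1, the Caudal gene of posterior fate, was at percentile 77.1, with 70.2 in replicate 1 and 56.6 in replicate 2. vab-7, the even-skipped gene, had regions inside and none at a 5' end between replicates. The other ranked list had one at the vab-7 5' end, at percentile 11.3.

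For LIM genes, 3 of 7 had a candidate region at a 5' end. lin-11, a gene of vulval and interneuron fate, was at percentile 77.4 (24.9 in replicate 1, 81.7 in replicate 2), and lim-4 was at 31.1. lim-7, mec-3 of touch receptor neurons and ttx-3 of the AIY interneuron had neither kind of region between replicates. In the POU class ceh-18, which acts in gonadal sheath cells, was at percentile 69.9, and ceh-6 had regions inside and none at a 5' end between replicates. The other ranked list had one at the ceh-6 5' end (percentile 64.2). For unc-86, the partner of MEC-3, no ranked list had a region at a 5' end. None was inside it between replicates or in either replicate.

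Paired-like and Pax genes had a candidate region at a 5' end in 7 of 15, with a median percentile of 54.2. ceh-37, an Otx gene, was at 78.8 (47.4 in replicate 1, 62.7 in replicate 2). vab-3, the worm Pax6, was at 73.7, with 52.4 in replicate 1 and none in replicate 2. ceh-10, ceh-17, ceh-36, ceh-54 and ttx-1 had neither kind of region between replicates. None of the 4 sine oculis-type genes had a candidate region at a 5' end between replicates, although ceh-32 was at percentile 91.6 in replicate 1. The other ranked list had a region at the ceh-32 5' end, with a signal of 38.4 (percentile 83). ceh-33 and unc-39 had none inside between replicates either.

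All 4 TALE genes among the members had candidate regions inside and 3 had one at a 5' end, with a median percentile of 58.2. Both zinc finger homeobox members had one at a 5' end. zfh-2, related to mammalian ZFHX3, was at percentile 84.2 (47.9 in replicate 1, 69.6 in replicate 2), and zag-1, the ZEB gene of neuronal differentiation, was at 72.7. In the CUT class, beyond the genes above, ceh-49 was at 70.9 with no overlapping region in either replicate. ceh-48 had no region at a 5' end in any ranked list, and none inside between replicates or in either replicate. Of the 22 unclassed members 6 had a candidate region at a 5' end, including ceh-75 at percentile 77.2 (84.3 in replicate 2, none in replicate 1). The unclassed genes with neither kind of region between replicates were ceh-57, ceh-58, ceh-63, ceh-74, ceh-76, ceh-79, ceh-83, ceh-84, ceh-86, ceh-90 and ceh-100. Of these, ceh-83 had a region at a 5' end in the other ranked list (percentile 57).

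**Figure D5:**
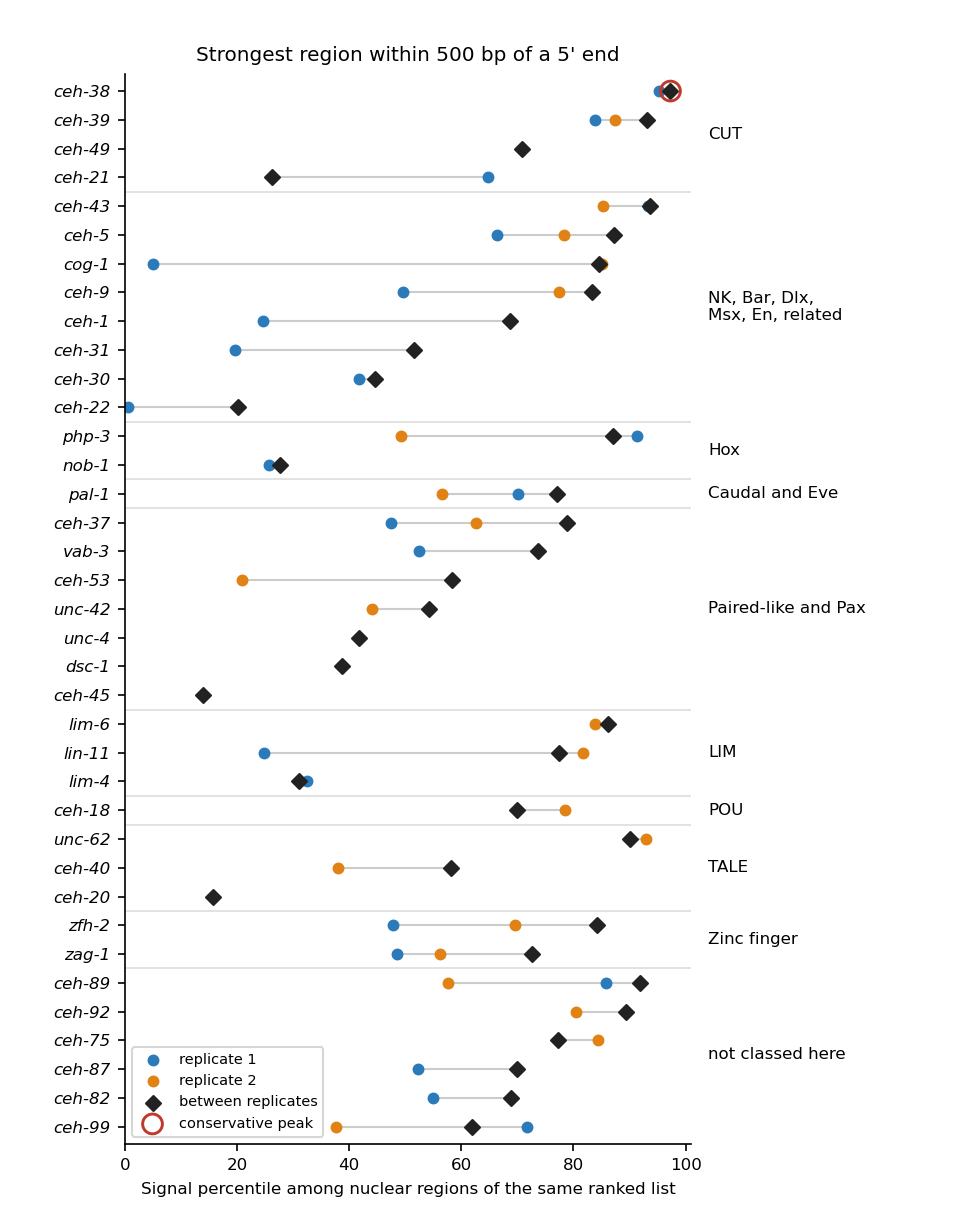
Signal percentile of the strongest region within 500 bp of a 5' end for the 37 members with a candidate region, by class, between replicates (black diamonds), with the overlapping region in replicate 1 (blue) and in replicate 2 (orange) where there is one. ceh-38, circled in red, is the member with a conservative peak at percentile 97.3, and the replicates lie far apart for cog-1, lin-11 and php-3.

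Homeobox genes were longer than most, with a median length of 3.34 kb against 2.03 kb, and held 112 candidate regions inside. That is 0.271 regions per kb, against 0.363 over all genes. Conservative peaks inside came to 2.42 per Mb in members, which is the 1 peak in ceh-8, and to 8.09 per Mb over all genes. Of the 112 regions, 61 were in introns, 34 in coding exons, 13 in 3' UTRs and 4 in 5' UTRs. Most in 1 gene were the 15 of zfh-2, followed by 8 in vab-3 and 7 in unc-62, none of them a peak. These counts are not adjusted for length, and the 3 genes are long, at 31398, 19691 and 13989 bp. Above the 90th percentile there were 3 of 112 (2.68%), those of ceh-8, ceh-21 and ceh-39, against 5.5% of 22836 regions inside protein-coding genes.

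The X chromosome carried 26 of the 92 members (28.3%) and 13.7% of protein-coding genes. On X, 0 of 26 members and 3.63% of genes had a conservative peak at a 5' end, and on autosomes 1 of 66 (1.52%) and 7.59%. Candidate regions were found at 13 of 26 members on X (50%) and at 24 of 66 on autosomes (36.4%), against 47.1% and 44.4% of all genes. With 1 peak in all, no difference between X and the autosomes was assessed for the members.

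Other transcription factor families were counted in the same way for comparison. Among 269 nuclear hormone receptor genes with an nhr- symbol, 3 had a conservative peak at a 5' end (1.12%, interval 0.38% to 3.23%). A candidate region there was found for 96 of them (35.7%). Among 25 helix-loop-helix genes with an hlh- symbol the counts were 2 (8%, interval 2.22% to 25%) and 7 (28%). Over all protein-coding genes the shares were 7.05% and 44.8%. Nuclear hormone receptor genes thus had a share of 5' end peaks near that of homeobox genes, and no difference between these families was tested. Another 9 homeobox genes fall outside the naming rule. From 500 to 3000 bp upstream, duxl-1 had a peak in the conservative list, the other list and replicate 2, which is 1 of 9 (11.1%, interval 1.99% to 43.5%) against 7.12% of all genes. None of the 9 had a peak at a 5' end or inside in any of the 4 lists, and 5 had a candidate region at a 5' end, at percentile 67.1 for duxl-1, 56.9 for hmbx-1, 50.3 for psa-3, 48.8 for dve-1 and 30.7 for nsy-7. eyg-1, irx-1, pax-3 and pha-2 had none at a 5' end between replicates.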

How the data were processed

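RCOR-1::eGFP ChIP-seq of whole worms gave 2 biological replicates, per the labels. The authors deposited regions on ce11, ordered by IDR, as their file notes say. No aligner, peak caller or use of a control is given in the sources used here. Signal values, as the authors deposited them, have no defined unit, and each was turned into a percentile among the nuclear regions of its own ranked list. Beside it, the deposited ranked lists give a −log10 IDR per region. Summits are offsets in bp as the authors deposited them. Per the file notes, the other thresholded and ranked lists of the series were also made from both replicates. How their making differed from that of the conservative list and its ranked list is not stated. Values given as between replicates are those of the ranked list that goes with the conservative list. Of the columns with per-sample values, 8 were not used.

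Thresholded lists held 2324 (conservative), 2378 (other), 1530 (replicate 1) and 1457 (replicate 2) nuclear peaks, and ranked lists 45081 (between replicates), 45908 (other), 37712 and 32402 regions. Read totals were not given, so the precision of a single signal is unknown. Gene models were Ensembl release 115, and region ends lay within the reference lengths on every nuclear chromosome. Members were matched by symbol, and their classes were assigned by hand from general knowledge. Replicate values at the same site, an addition made after seeing the data, are those of a region sharing at least 1 bp. Intervals are 95% Wilson intervals. Counts were made with Python 3.11.15, pandas 2.3.3, numpy 2.4.6 and scipy 1.17.1, and gene assignment was tested on simulated summits.

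The members and lists were chosen with earlier results of these data known, and the 500 to 3000 bp upstream count and the counts without peaks at non-coding RNA genes were added after seeing the data. Named genes were each member with a peak at a 5' end or inside, the 15 highest uncalled members, the Hox genes, the neighbours of a named peak gene, members with no region, and 9 homeobox genes outside the rule. Other members were named as examples after their values were seen. Alternatives were the other lists, each replicate alone, peaks above the median signal, other windows, overlap in place of summits, the nearest 5' end alone and other percentiles. There was 1 group, so no test between groups was made.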

Additional observations from a re-analysis of the deposited data

How the results depend on the processing

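No paired analysis was possible because there was 1 group. The count of members with a peak at a 5' end was 1 and became 2 in the other thresholded list and 0 with peaks above the median signal, while each replicate alone gave 0 to 1. It stayed at 1 with overlap of at least 1 bp, both other windows, the nearest 5' end alone and without peaks at non-coding RNA genes. The count with a peak inside the gene was 1 and became 2 in the other list. It became 0 without peaks at non-coding RNA genes, since the ceh-8 summit lies beside one, and was 1 with each replicate alone. Such genes are common under peaks, with 31.2% of the 2324 conservative peaks at one, against 9.96% of candidate regions. The count over all genes without such peaks is not given here. Members with a candidate region at a 5' end, 37, fell to 20 with a 200 bp window, a narrower search. They were 38 in the other ranked list, 43 from 1000 bp upstream to 100 bp downstream and 33 to 37 with each replicate alone. The median percentile of 70.9 went to 49.6 in replicate 1 alone and 64.8 in replicate 2 alone, with an SD between both of 10.7. At the same site, an alternative chosen after seeing the data, it was 50.9 over 24 members in replicate 1. In replicate 2 it was 77.9 over 22 members, of which 14 were shared. Elsewhere it ran from 64 to 77.1. The members' median was below that of all genes in the list between replicates (70.9 against 71.7) and above it in the other ranked list (72.2 against 71.9). The cause of these shifts was not tested. Values of single members here are those of each list's strongest region near any 5' end, which for several members is another site. For 32 single members, the percentile changed by a median of 0.4 and at most by 22.1 in the other ranked list. The largest change was that of unc-4, whose strongest region was at -380 bp between replicates and at 75 bp in the other list. Of 19 members with a region at a 5' end both between replicates and in each replicate, 12 moved by more than the SD between the replicates when replicate 1 was left out and 14 when replicate 2 was. With read totals unknown, a region that was not listed cannot be called absent.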
